A study of Schizosaccharomyces pombe with 24 samples.

Results

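Fission yeast cells lower the messages of their growth machinery when nitrogen is taken away, and 190 of 6877 genes made up the abundant part of that fall in the first hour. A gene was a member if its mean in wild-type cells at 0 h was at least 300 CPM (read counts on genes, scaled to a common library total) and its mean at 1 h was at most 0.25 of that. Of 655 coding or other genes without a non-coding RNA identifier that passed the level, 195 passed the ratio, and 5 sulfur-related or unnamed identifiers were left out by name. The members were thus chosen by the wt read levels at 0 h and 1 h, and the fall between them is a description and not a result. The label of abundant growth genes fits the membership by annotated product: 130 members code for cytosolic ribosomal proteins (69 of the large subunit, 56 of the small subunit and 5 of the stalk) and 60 have other roles.

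RNA was measured by directional sequencing of ribosomal RNA-depleted total RNA from Schizosaccharomyces pombe. The wild type carries the label wt (975 h+), and the other strain the label clr4D (975 h+ clr4D::NatMX6), a deletion of clr4 in the same h+ background, and Clr4 is the histone methyltransferase of fission yeast heterochromatin. Cultures grew at 32 °C in EMM minimal medium with adenine, histidine, leucine, lysine and uracil, were washed in EMM -N, which lacks nitrogen, and were kept there. Each strain was sampled at 0, 1, 2, 4, 10 and 24 h with 2 libraries per group, described as biological replicates, and the labels do not say whether more than 1 clone of the deletion strain was used.

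Growing yeast spends much of its transcription on ribosomes, and fission yeast codes for most ribosomal proteins with a pair or more of nearly identical genes. The nutrient-sensing kinase complex TORC1 is active while nitrogen is present and promotes ribosome production and protein synthesis. Cells without nitrogen stop growing, arrest before DNA replication and enter quiescence, or mate if a partner is present.

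Depth was 637723 to 4427020 gene reads per library, with a median of 1436782. All levels are shares of a library's reads scaled by trimmed mean of M values (TMM), so fewer growing cells and less message per cell cannot be told apart, and no culture moved to medium with nitrogen is among the libraries. The clr4 feature carried reads in the deletion-labelled strain, with 277 and 397 scaled CPM at 0 h beside 89.3 and 172 in wt, so these libraries are called clr4D-labelled. In 2 libraries the members stood apart from the other replicate. In wt 4 h replicate 2, the shallowest library, 184 of 190 members were higher than in replicate 1, by a median of 2.31-fold over the ribosomal protein members. In clr4D-labelled 0 h replicate 2, 186 members were higher than in replicate 1, by a median of 1.68-fold over the ribosomal protein members. Multiply aligned reads, 5.43% to 12.4% of a library, were not counted, so values of near-identical gene copies are uncertain.

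The members held a large share of the growing cell's messages. In wt at 0 h they took 23.1% and 20.97% of gene reads, and at 1 h 3.46% and 3.05%. The share was 4.12% and 4.17% at 2 h, 7.40% and 11.2% at 4 h, 8.66% and 8.14% at 10 h, and 9.58% and 10.13% at 24 h. In clr4D-labelled cells it was 21.3% and 26.6% at 0 h, 3.63% and 3.33% at 1 h, and 4.48% and 4.32% at 2 h. The later clr4D-labelled libraries held 6.65% and 6.87% at 4 h, 5.65% and 6.43% at 10 h, and 8.27% and 7.88% at 24 h. In clr4D-labelled cells the lowest shares were those at 1 h, and at 4, 10 and 24 h each clr4D-labelled library lay below both wt libraries.

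**Figure D1:**
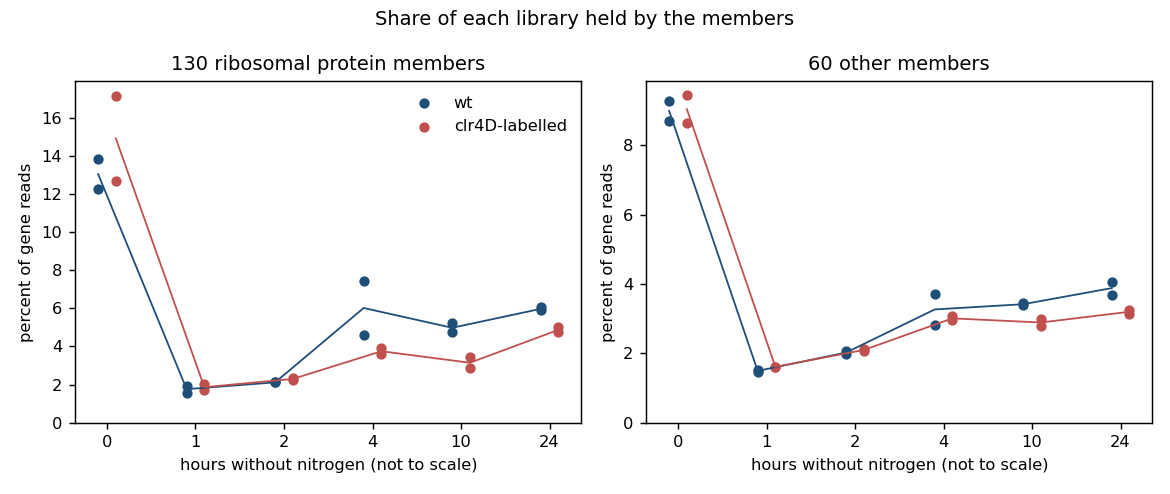
Percent of gene reads held by the 130 ribosomal protein members (left) and the 60 other members (right) against hours without nitrogen, with a point per library and a line through the mean of 2 libraries. The wt values at 0 h and 1 h follow from the rule, and the wt 4 h libraries lie far apart (7.40% and 11.2% for all members).

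The fall in the first hour was tested in the clr4D-labelled libraries, which the rule did not use. All 190 members passed the low-count filter, and 190 of 190 fell between 0 h and 1 h by edgeR's quasi-likelihood test, where 25.8% of the 5664 genes tested were called lower. In every member both 1 h libraries lay below both 0 h libraries. The median log2 difference was -3.10 over the members, -3.28 over the ribosomal protein members and -2.55 over the others, beside 0.00 over all genes tested. The count was 190 under each alternative tried, leaving out any of the 4 libraries included. In wt, where the same difference chose the members, the median was -2.94.

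The steepest fall belonged to rpp203, which codes for an acidic protein of the ribosomal stalk. Its level in clr4D-labelled cells was 366 and 685 CPM at 0 h and 18.8 and 6.42 CPM at 1 h, a log2 difference of -5.33 ± 0.48 (SE, adjusted p = 1.36e-07). It then lay at 18.4 and 22.8 CPM at 2 h, 47.4 and 37.5 at 4 h, 23.5 and 19.7 at 10 h, and 58.7 and 33.3 at 24 h. In wt it was at 469 and 326 CPM at 0 h, 11 and 6.38 at 1 h, and 80.2 and 75.6 at 24 h. No later library of either strain came near the 0 h levels. Among small subunit genes rps1402 was the steepest, with 1005 and 2026 CPM at 0 h and 61.9 and 48.8 CPM at 1 h in clr4D-labelled cells (-4.76 ± 0.53 SE, adjusted p = 3.13e-06).

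At the other end stood the chaperone gene sti1 and the sulfur metabolism genes hmt2, sul2 and sul1. The Hsp70-Hsp90 adaptor gene sti1 was at 1002 and 1174 CPM at 0 h and at 304 and 300 at 1 h in clr4D-labelled cells, the smallest fall of any member (-1.84 ± 0.18 SE, adjusted p = 5.94e-09). The sulfide-quinone oxidoreductase gene hmt2 (-1.87 ± 0.18 SE, adjusted p = 7.14e-09) and the sulfate transporter genes sul2 (-1.95 ± 0.27, adjusted p = 3.62e-06) and sul1 (-1.97 ± 0.17, adjusted p = 9.44e-10) came next. By role the median difference ran from -2.21 over 6 sulfur assimilation members to -3.35 over the 69 large subunit genes.

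The rule's edges were close to other growth genes. Just inside the ratio were rps27 at 0.248, rps3002 at 0.247 and rpl3703 at 0.244 of the wt 0 h level, and just outside were the elongation factor gene tef102 at 0.252, nmd5 at 0.256 and dbp2 at 0.259. Just inside the level, in CPM before TMM scaling, were rps2202 at 307, ppp1 at 316 and rpp203 at 323, and just outside were the ribosome biogenesis genes gar1 at 295, snu13 at 295 and dbp3 at 288. Of 142 cytosolic ribosomal protein genes 12 were not members. The level alone left out rpl3002, rpl4102, rpp101, rpl1603, rpl102, rpl3402 and rpl1202. The ratio alone left out rps13 at 0.269, rpl1001 at 0.287, rpl35A02 at 0.367 and rpp202 at 0.275. The gene rpl1201 met neither, with 47.2 CPM in wt at 0 h and a ratio of 0.304. All 12 fell in clr4D-labelled cells between 0 h and 1 h.

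**Figure D2:**
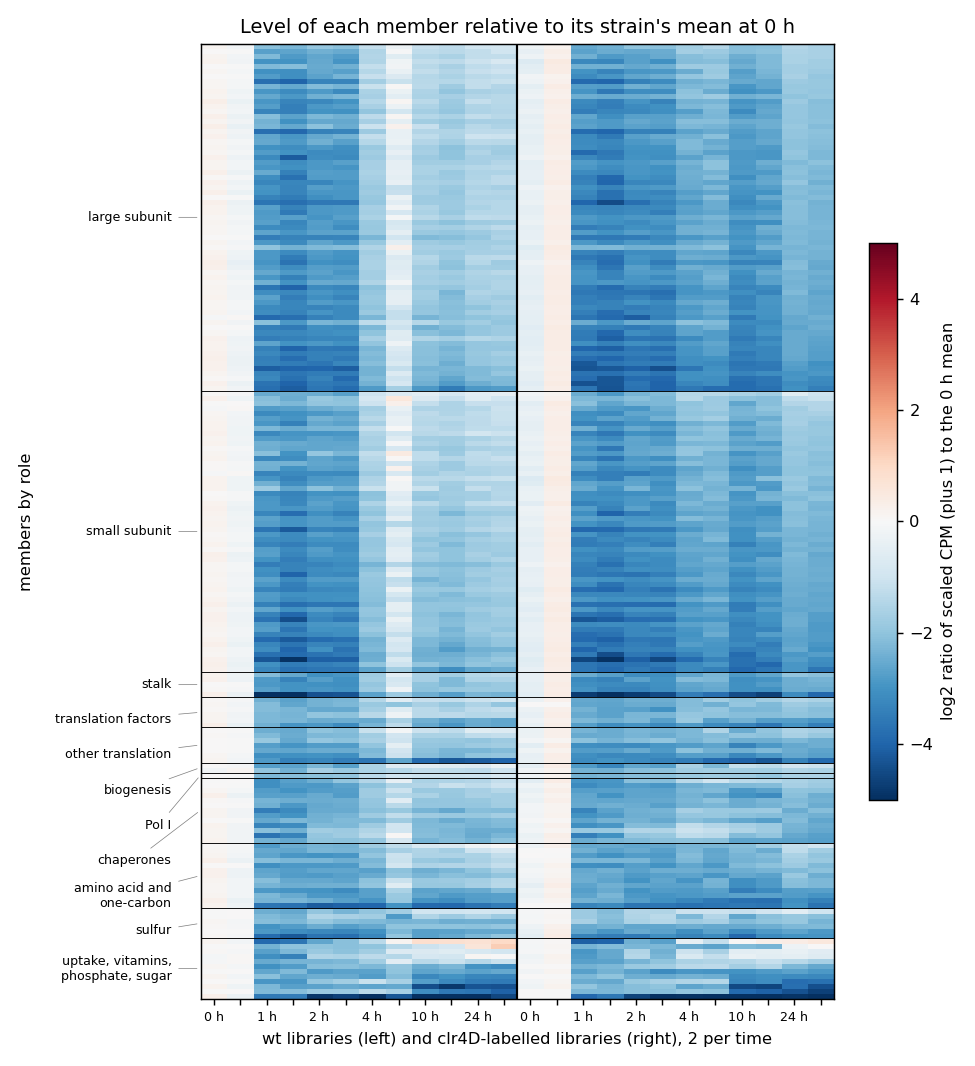
Level of each of the 190 members (rows, by role) in each library (columns, 2 per time, wt left and clr4D-labelled right) as the log2 ratio of scaled CPM plus 1 to the same strain's 0 h mean plus 1. Blue marks levels below 0 h; the column of wt 4 h replicate 2 is lighter than its neighbour, and in the lowest block of uptake and vitamin genes some rows return to white or red by 24 h while others darken.

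After the first hours the ribosomal protein members regained part of their level in both strains. In wt the 24 h libraries were compared with 2 h, since the 1 h libraries had been used by the rule. Of the 190 members 159 rose and 6 fell, where 19.4% of all genes tested were called higher and 20.4% lower. Both 24 h libraries lay above both 2 h libraries for 173 members, beside 37.5% of all genes tested. Of the 130 ribosomal protein members 124 rose and none fell (none at an unadjusted p under 0.05), with a median log2 difference of 1.33, and of the 60 other members 35 rose and 6 fell, with a median of 0.70. In clr4D-labelled cells 24 h was compared with 1 h: 116 members rose and 7 fell, where 18.1% of all genes tested were called higher and 22.9% lower. There 92 of the 130 ribosomal protein members rose and none fell (none at an unadjusted p under 0.05), with a median of 1.03, and 24 of the 60 others rose and 7 fell, with a median of 0.46. Leaving out clr4D-labelled 1 h replicate 2 took the count of 116 to 57, leaving out the other 1 h library to 74, and leaving out 24 h replicate 1 to 69.

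The return was partial. At 24 h the median member stood at 32.3% of its wt 0 h level and at 20.8% of its clr4D-labelled 0 h level. Against 0 h in clr4D-labelled cells 187 of 190 members were still lower at 24 h, where 29.3% of all genes tested were called lower, and none was called higher (edgeR; none at an unadjusted p under 0.05 or with DESeq2), where 25.4% of all genes tested were. Without wt 4 h replicate 2 in the fit 1 member was called higher. The exceptions were pho84, mfs3 and ght8, all for transporters. In wt 15 members stood at 50% or more of their 0 h mean at 24 h and 37 under 25%, and in clr4D-labelled cells these numbers were 6 and 145. The clr4D-labelled percentages rest on 0 h libraries that differed from each other, and without 0 h replicate 2 the count of 187 was 184.

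A large subunit gene, rpl702, had the largest rise from 1 h to 24 h among the ribosomal protein members of clr4D-labelled cells. Its level there was 948 and 1311 CPM at 0 h, 75.3 and 70.6 at 1 h, 107 and 126 at 2 h, 215 and 228 at 4 h, 194 and 184 at 10 h, and 318 and 307 at 24 h. The rise from 1 h to 24 h was 2.10 ± 0.20 (log2, SE, adjusted p = 1.06e-08). In wt it was at 1075 and 948 CPM at 0 h, 72.7 and 62.3 at 1 h, 102 and 103 at 2 h, 313 and 470 at 4 h, 391 and 380 at 10 h, and 428 and 471 at 24 h. The rise from 2 h to 24 h in wt was 2.14 ± 0.18 (adjusted p = 1.63e-09), and at 10 h and 24 h the wt libraries lay above the clr4D-labelled ones with no overlap. The clr4D-labelled rise of rpl702 followed a first-hour log2 difference of -3.94, and other members stood nearer to their 0 h level. At 24 h the highest large subunit member there was at 34.1% of 0 h and the highest small subunit member at 56.6%.

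For 38 ribosomal protein members the difference at 24 h against 1 h did not pass the test in clr4D-labelled cells. The large subunit gene rpl13 was at 642 and 671 CPM at 1 h and 615 and 625 at 24 h in clr4D-labelled cells (-0.08 ± 0.40 SE, adjusted p = 0.892), the only negative difference among the 130. The small subunit gene rps102 had the lowest difference of its subunit, with 581 and 530 CPM at 1 h and 751 and 724 at 24 h (0.41 ± 0.25 SE, adjusted p = 0.192). In wt rps102 rose from 505 and 510 CPM at 2 h to 995 and 1123 at 24 h (1.06 ± 0.24, adjusted p = 0.00126). Over the same interval in clr4D-labelled cells rps102 was not called (0.39 ± 0.24, adjusted p = 0.228). The central stalk gene rpp0 was at 589 and 506 CPM at 1 h, 384 and 393 at 2 h and 855 and 785 at 24 h in clr4D-labelled cells, so that its lowest level came at 2 h. Its difference there was 0.58 ± 0.29 at 24 h against 1 h (adjusted p = 0.109). Against 2 h rpp0 was called higher in clr4D-labelled cells (1.08 ± 0.29, adjusted p = 0.00617). In wt rpp0 rose from 352 and 381 CPM at 2 h to 1064 and 1129 at 24 h (1.58 ± 0.29, adjusted p = 0.000142).

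The rise after the first hour was compared among genes for the same ribosomal protein. There were 49 families with at least 2 members (101 genes), and the median gap between the highest and lowest difference of a family, 24 h against 1 h in clr4D-labelled cells, was 0.33 on the log2 scale, a value that is positive by construction. In the family of rpl7, rpl702 rose by 2.10 and rpl701 by 0.75 (0.75 ± 0.29 SE, adjusted p = 0.0451). In rpp2, rpp203 rose by 1.86 (± 0.61 SE, adjusted p = 0.0242) and rpp201 had 0.70 (± 0.29, adjusted p = 0.0619). The gaps of rpl15 and rpl8 were 1.00 and 0.97, between rpl1502 and rpl15 and between rpl803 and rpl8. In wt, 24 h against 2 h, the gene with the larger difference in clr4D-labelled cells also had the larger one in 42 of the 49 families and in each of these 4. The differences between family members were not tested, and the wt and clr4D-labelled intervals start at different times. In these 4 families the gene with the larger rise had also fallen further between 0 h and 1 h in clr4D-labelled cells. The falls were -3.94 and -3.03 for rpl702 and rpl701, and -5.33 and -3.10 for rpp203 and rpp201. They were -3.92 and -3.37 for rpl1502 and rpl15, and -3.23 and -2.89 for rpl803 and rpl8. The larger rises thus started from levels further below those of 0 h. The rise alone does not say which gene of a family stood nearer to its 0 h level at 24 h.

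**Figure D3:**
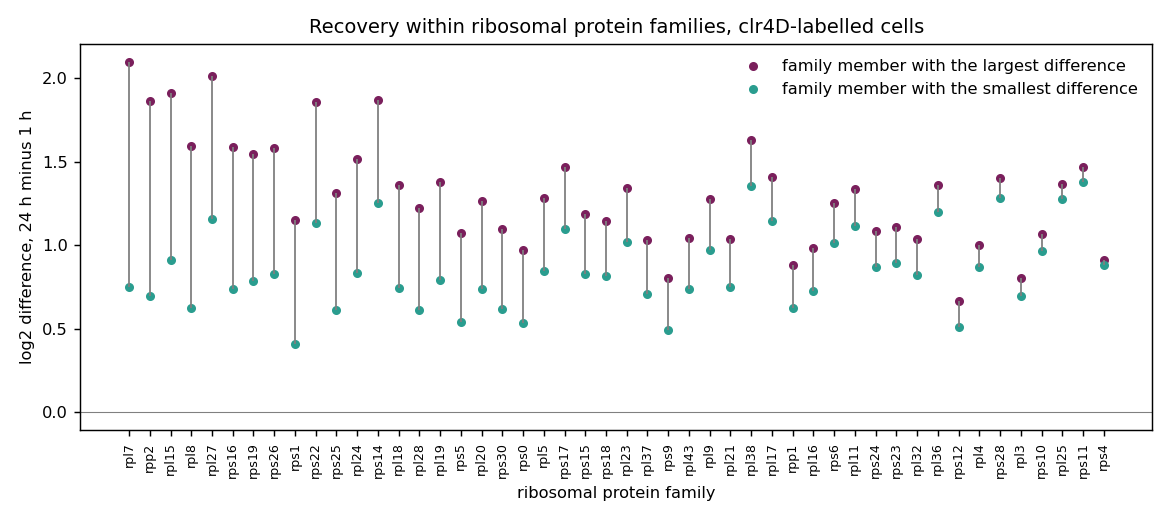
Log2 difference at 24 h against 1 h in clr4D-labelled cells for the gene with the largest and the gene with the smallest difference in each of 48 of the 49 ribosomal protein families (x axis, ordered by the gap). The families rpl7 and rpp2 have the widest gaps, and every point lies above 0.

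Translation factors and the rest of the translation apparatus recovered unevenly. The gene tif1, for the RNA helicase eIF4A of translation initiation, was at 2822 and 4003 CPM at 0 h, 571 and 563 at 1 h and 1234 and 1153 at 24 h in clr4D-labelled cells. It rose from 1 h to 24 h by 1.07 ± 0.24 (SE, adjusted p = 0.000844), and in wt from 633 and 665 CPM at 2 h to 1557 and 1716 at 24 h (1.33 ± 0.23, adjusted p = 7.93e-05). The initiation factor gene tif11 also rose in clr4D-labelled cells (0.76 ± 0.18, adjusted p = 0.00125). The elongation factor 1-alpha gene tef101 was at 467 and 367 CPM at 1 h and 408 and 298 at 24 h (-0.24 ± 0.31 SE, adjusted p = 0.568), and tif213, for a subunit of eIF2, had -0.52 ± 0.30 (adjusted p = 0.183). For the elongation factor 2 gene eft202 the difference was 0.49 ± 0.26 (adjusted p = 0.138), and tef5, for an elongation factor 1 subunit, was at 405 and 372 CPM at 1 h and 580 and 550 at 24 h. Copies of tef101 elsewhere in the genome make its counts uncertain.

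Among the other 7 translation genes, cpc2, which codes for the RACK1 protein of the small subunit, was at 2865 and 4821 CPM at 0 h, 455 and 413 at 1 h and 650 and 590 at 24 h in clr4D-labelled cells (24 h against 1 h 0.51 ± 0.26 SE, adjusted p = 0.121). The zinc finger translational activator gene byr3 rose (0.83 ± 0.30 SE, adjusted p = 0.0347). The ribosome-binding protein gene oga1, of the Stm1 family, was not called at 24 h against 1 h in clr4D-labelled cells: it was at 151 and 168 CPM at 1 h and 129 and 88.2 at 24 h (-0.56 ± 0.30 SE, adjusted p = 0.144), and at 60.4 and 67.3 in wt at 24 h, where its 0 h level was 1188 and 990. The remaining genes here were SPAC29A4.02c (elongation factor 1-gamma), tif512 (eIF5A), sum3 (an initiation helicase) and SPAC27E2.03c (an Obg-like ATPase). In this group 2 of 7 rose and none fell in clr4D-labelled cells between 1 h and 24 h, where 18.1% of all genes tested were called higher and 22.9% lower. In wt 4 of 7 rose and none fell between 2 h and 24 h, where 19.4% of all genes tested were called higher and 20.4% lower.

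Of the genes that build ribosomes or transcribe ribosomal RNA, 3 were members. The nucleolin homologue gene gar2 was at 118 and 88.5 CPM at 1 h and 439 and 402 at 24 h in clr4D-labelled cells, a rise of 2.02 ± 0.31 (SE, adjusted p = 4.76e-05), and reached 458 and 597 in wt, where 0 h was 764 and 724. The biogenesis gene ppp1 rose by 0.85 ± 0.17 (adjusted p = 0.000362). The gene nuc1, for the largest subunit of RNA polymerase I, rose from 240 and 255 CPM to 408 and 421 in clr4D-labelled cells (0.74 ± 0.16, adjusted p = 0.00069).

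The wider lists of these pathways hold 9 of the members. Of 124 listed ribosome biogenesis genes 120 fell between 0 h and 1 h in clr4D-labelled cells and none rose (median -1.55), and 89 rose and none fell between 1 h and 24 h (median 0.75). Of 41 listed translation factors 36 fell and none rose in the first hour (median -1.64), and later 7 rose and 4 fell (median 0.12). Of 33 tested genes of RNA polymerases I and III, 20 fell and 2 rose (median -0.92), and later 16 rose and 2 fell (median 0.51). Of 34 genes of the TOR pathway and regulators of ribosomal genes, 14 rose and 3 fell in the first hour (median 0.35), and 4 rose and 13 fell afterwards (median -0.18). Over all genes tested the 2 medians were 0.00 and -0.01, with 26.4% called higher and 25.8% lower in the first hour, and 18.1% higher and 22.9% lower between 1 h and 24 h.

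Chaperone genes, which fold new proteins, formed 13 members. The nascent polypeptide-associated complex is coded by btf3 and egd2, and zuo1 and sks2 code for chaperones that sit on the ribosome. The others are hsp90, the Hsp70 genes ssa2 and ssc1, the Hsp110 gene pss1, mas5, sti1, the co-chaperonin gene hsp10 and the isomerase genes wis2 and ani1. In clr4D-labelled cells 7 rose and 1 fell between 1 h and 24 h, where 18.1% of all genes tested were called higher and 22.9% lower. The rise was largest for ani1, from 57.9 and 66.7 CPM to 162 and 147 (1.31 ± 0.20 SE, adjusted p = 1.1e-05), and the fall was that of sti1 (-0.62 ± 0.18, adjusted p = 0.00754).

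The heat shock genes ssa2 and hsp90 had their highest levels after 0 h at 4 h. By group means this held in wt for 159 of the 190 members and in clr4D-labelled cells for 22. The wt count leans on 4 h replicate 2, where the median ribosomal protein member was at 697 CPM. In wt replicate 1 that median was 298 CPM at 4 h, 311 at 10 h and 333 at 24 h. In clr4D-labelled cells ssa2, for a cytosolic Hsp70, was at 6316 and 9702 CPM at 0 h, 744 and 987 at 1 h, 2071 and 2153 at 2 h, 3311 and 3178 at 4 h, 1793 and 2026 at 10 h, and 1345 and 1225 at 24 h. In wt it was at 629 and 806 CPM at 1 h, 2165 and 2371 at 2 h, 3256 and 8496 at 4 h, and 1439 and 1694 at 24 h. In clr4D-labelled cells hsp90 was at 836 and 932 CPM at 1 h, 3007 and 2568 at 4 h, and 1409 and 1282 at 24 h, and rose between 1 h and 24 h by 0.61 ± 0.23 (SE, adjusted p = 0.0409).

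Amino acid and one-carbon genes made up 13 members: shm1, gly1, lys12, lys4, hom2, ser3, ilv5, eca39, SPAP8A3.07c, thf1, dfr1, SPBC8D2.18c and the pyrimidine gene ura3. In clr4D-labelled cells 4 of them rose and 1 fell between 1 h and 24 h, where 18.1% of all genes tested were called higher and 22.9% lower. In wt 10 rose and none fell between 2 h and 24 h, where 19.4% of all genes tested were called higher and 20.4% lower. These intervals start at different times. From 2 h to 24 h in clr4D-labelled cells gly1, lys4, ura3, dfr1, hom2 and eca39 were called higher, where 14.3% of all genes tested were. The dihydrofolate reductase gene dfr1 was at 836 and 768 CPM at 0 h in wt, 113 and 144 at 1 h, 159 and 153 at 2 h, 231 and 332 at 4 h, 458 and 484 at 10 h, and 668 and 793 at 24 h. In clr4D-labelled cells it was at 144 and 145 CPM at 1 h, 140 and 142 at 2 h, 167 and 171 at 4 h, 190 and 251 at 10 h, and 373 and 431 at 24 h. The rise was 2.23 ± 0.19 in wt from 2 h (SE, adjusted p = 1.82e-09) and 1.48 ± 0.20 in clr4D-labelled cells from 1 h (adjusted p = 1.84e-06).

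Other genes of this group had no called rise at 24 h against 1 h in clr4D-labelled cells. The serine hydroxymethyltransferase gene shm1 was at 4914 and 6533 CPM at 0 h, 850 and 987 at 1 h and 840 and 860 at 24 h in clr4D-labelled cells (24 h against 1 h -0.11 ± 0.26 SE, adjusted p = 0.761). The serine synthesis gene ser3 was at 2536 and 2626 CPM at 0 h, 262 and 281 at 1 h and 324 and 200 at 24 h (-0.06 ± 0.24, adjusted p = 0.877). The lysine synthesis gene lys12 fell further, from 92.8 and 88.5 CPM at 1 h to 57.3 and 46.5 at 24 h (-0.81 ± 0.28, adjusted p = 0.0251).

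Sulfur assimilation had 6 members, cys2, sir1, sua1, sul1, sul2 and hmt2. In clr4D-labelled cells 1 rose and none fell between 1 h and 24 h, where 18.1% of all genes tested were called higher and 22.9% lower. In wt 4 rose and none fell between 2 h and 24 h, where 19.4% of all genes tested were called higher and 20.4% lower. The sulfate transporter gene sul1 was at 122 and 95 CPM at 1 h, 152 and 151 at 2 h, 202 and 200 at 4 h, 190 and 221 at 10 h and 299 and 212 at 24 h in clr4D-labelled cells (1.23 ± 0.17 SE, adjusted p = 2.56e-06). The sulfate adenylyltransferase gene sua1 was at 304 and 281 CPM at 1 h and 388 and 399 at 24 h in clr4D-labelled cells (0.43 ± 0.34, adjusted p = 0.34). In wt sua1 rose from 232 and 223 CPM at 2 h to 632 and 772 at 24 h (1.63 ± 0.34, adjusted p = 0.000908).

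The 12 members of uptake, vitamin and phosphate metabolism split most widely. They are snz1, bsu1, vht1, SPBC1604.04, hem1, pho84, pho1, pho4, ght5, ght8, mfs3 and rhs1. In clr4D-labelled cells 5 rose and 5 fell between 1 h and 24 h, where 18.1% of all genes tested were called higher and 22.9% lower. In wt 5 rose and 5 fell between 2 h and 24 h, where 19.4% of all genes tested were called higher and 20.4% lower.

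The phosphate transporter gene pho84 returned most of all members. In clr4D-labelled cells it was at 2649 and 2895 CPM at 0 h, 163 and 173 at 1 h, 529 and 417 at 2 h, 2015 and 1229 at 4 h, 2879 and 3357 at 10 h, and 3542 and 3978 at 24 h. From 1 h to 24 h it rose by 4.48 ± 0.38 (SE, adjusted p = 2.73e-09), and its difference at 24 h from 0 h was 0.44 ± 0.32 (adjusted p = 0.251). In wt pho84 was at 3452 and 2879 CPM at 0 h and at 5253 and 6238 at 24 h. The transporter gene mfs3 rose late: in clr4D-labelled cells it was at 105 and 94.2 CPM at 4 h, 130 and 121 at 10 h, and 510 and 607 at 24 h. In wt mfs3 was at 465 and 468 CPM at 0 h and 719 and 1107 at 24 h, and its rise from 2 h was 3.03 ± 0.20 (adjusted p = 5.19e-11). The glucose transporter gene ght5 and the hexose transporter gene ght8 rose in clr4D-labelled cells by 2.14 ± 0.23 (adjusted p = 6.21e-08) and 2.27 ± 0.31 (adjusted p = 1.64e-05).

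Other genes of this group went down a second time. The vitamin B6 synthesis gene snz1 was at 2494 and 3261 CPM at 0 h, 725 and 585 at 1 h, 663 and 716 at 2 h, 457 and 516 at 4 h, 125 and 117 at 10 h, and 210 and 136 at 24 h in clr4D-labelled cells (24 h against 1 h -1.92 ± 0.22 SE, adjusted p = 2.83e-07). The acid phosphatase gene pho4 was at 861 and 850 CPM at 1 h, 1044 and 969 at 4 h, and 195 and 158 at 24 h (-2.28 ± 0.20, adjusted p = 2.62e-09). The vitamin B6 carrier gene bsu1 (-1.24 ± 0.19, adjusted p = 1.15e-05) and the thiamine pyrophosphate transporter gene SPBC1604.04 (-1.08 ± 0.19, adjusted p = 7.61e-05) also fell. In wt these 4 genes fell between 2 h and 24 h as well, with snz1 going from 516 and 566 CPM to 163 and 159. The biotin transporter gene vht1 was the lowest of all members relative to 0 h, with 2584 and 2530 CPM at 0 h, 168 and 214 at 1 h and 85.4 and 70.6 at 24 h in clr4D-labelled cells (24 h against 0 h -5.03 ± 0.25, adjusted p = 8.75e-14).

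**Figure D4:**
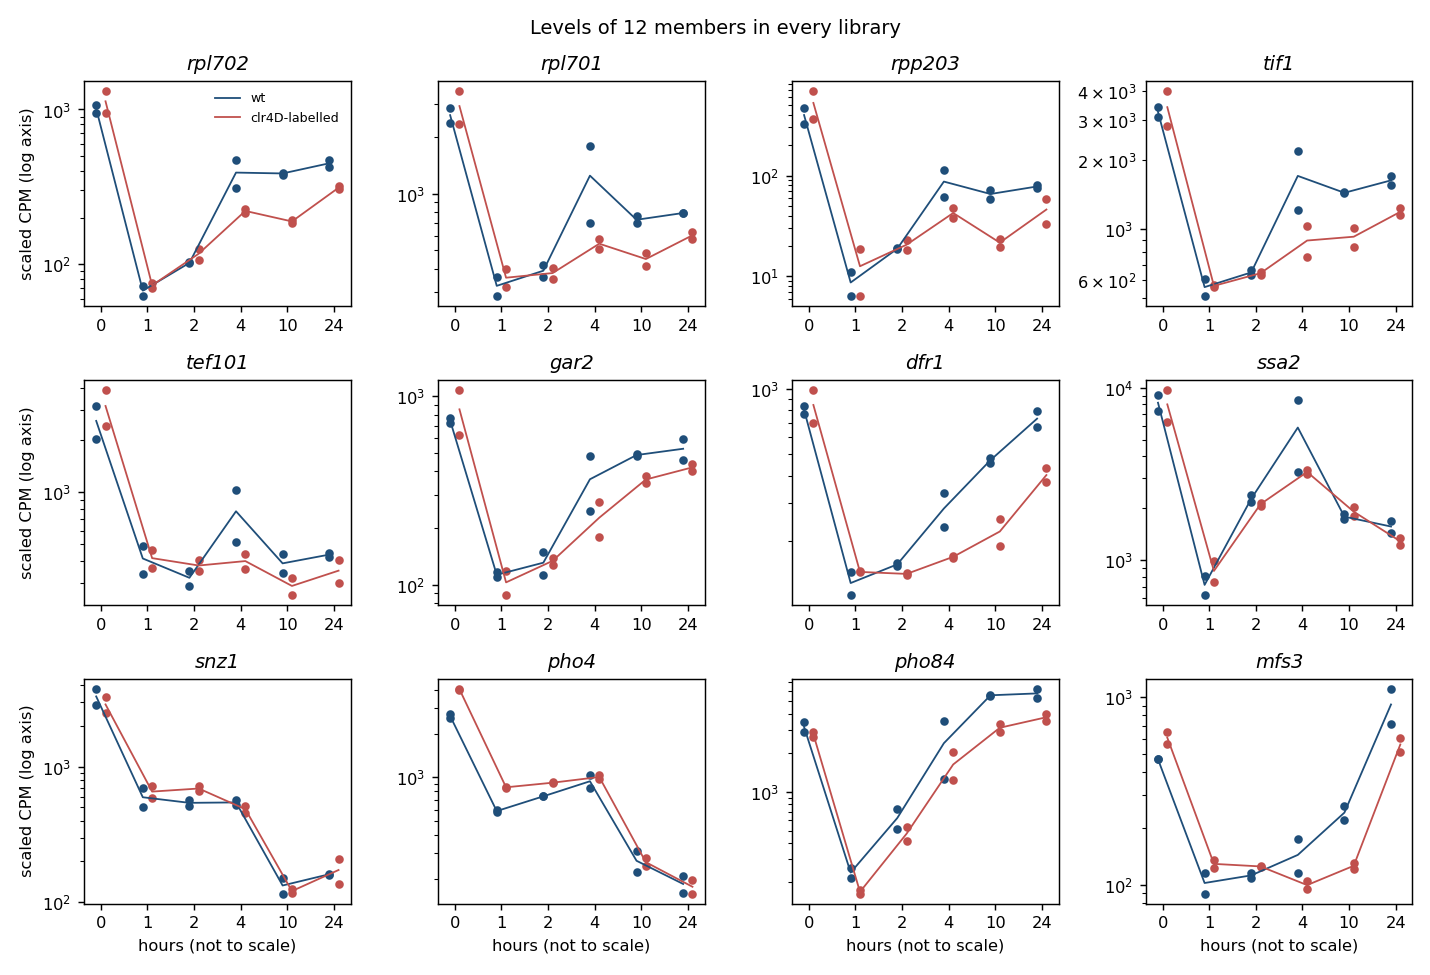
Scaled CPM (log axis) of 12 members in every library against hours without nitrogen, points for libraries and lines for the mean of 2. The genes snz1 and pho4 fall again after 4 h, pho84 and mfs3 lie close to their 0 h levels or above by 24 h in both strains, and ssa2 is highest after 0 h at 4 h.

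The strains were compared at the 4 times that the rule did not use. At 2 h 1 of the 190 members, sul1, was higher in clr4D-labelled cells (0.76 on the log2 scale, adjusted p = 0.00957), where 1.32% of all genes tested were called higher, and none was lower (edgeR; 1 at an unadjusted p under 0.05, none with DESeq2), where 0.23% of all genes tested were called lower. The median difference was 0.10. The sul1 call was lost without either clr4D 2 h library or without wt 2 h replicate 2. At 0 h and 1 h, where wt values had chosen the members, the median differences were 0.19 and 0.05.

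At 4 h 126 members were lower in clr4D-labelled cells and 1, sul1, was higher (0.88 ± 0.17 SE, adjusted p = 0.000897), where 9.82% of all genes tested were called lower and 5.19% higher. This count rests on wt 4 h replicate 2: without that library 2 members were lower. Without clr4D 4 h replicate 1 the count was 1 and without replicate 2 it was 36. The median difference was -0.98. Both clr4D-labelled libraries lay below wt 4 h replicate 1 alone for 160 of the 190 members. The share of all genes tested that met this condition is not given here. For the stricter condition of lying below both wt libraries at 4 h that share was 27.2%. The median ribosomal protein member was at 298 CPM in wt replicate 1, 697 in wt replicate 2, and 216 and 228 in the clr4D-labelled libraries.

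At 10 h 66 members were lower in clr4D-labelled cells and 2, wis2 and ght5, were higher, where 12% of all genes tested were called in each direction. All 130 ribosomal protein members had a negative difference, and 48 of them were called, with a median of -0.78. How many of all genes tested had a negative difference is not given here. The median ribosomal protein member was at 311 and 271 CPM in the wt libraries and at 158 and 176 in the clr4D-labelled ones, so the groups did not overlap. The count of 66 fell to 11, 36, 13 and 38 without clr4D replicate 1, clr4D replicate 2, wt replicate 1 and wt replicate 2 of that time. It was 139 without wt 4 h replicate 2, a library of another time that shares the estimate of spread. The higher genes were wis2 (0.68 ± 0.17 SE, adjusted p = 0.00375) and ght5 (0.56 ± 0.19, adjusted p = 0.039), and their count was 1 without each of the 4 libraries. Among the called genes were rpp203 (-1.63 ± 0.43 SE, adjusted p = 0.0127), egd2 (-1.19 ± 0.19, adjusted p = 6.16e-05), dfr1 (-1.10 ± 0.18, adjusted p = 7.64e-05), rpl702 (-1.03 ± 0.17, adjusted p = 8.34e-05) and mfs3 (-0.93 ± 0.20, adjusted p = 0.000886).

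At 24 h 7 members were lower in clr4D-labelled cells, where 3.16% of all genes tested were called lower. They were dfr1 (-0.86 ± 0.18 SE, adjusted p = 0.0019), mfs3 (-0.71 ± 0.18, adjusted p = 0.0107), rps2601 (-0.64 ± 0.18, adjusted p = 0.0255), gly1 (-0.56 ± 0.16, adjusted p = 0.0236), ani1 (-0.55 ± 0.15, adjusted p = 0.0231), nuc1 (-0.53 ± 0.15, adjusted p = 0.0275) and rpl702 (-0.53 ± 0.17, adjusted p = 0.048). None was higher (edgeR; 1 at an unadjusted p under 0.05, none with DESeq2), where 5.63% of all genes tested were called higher. The median difference was -0.40, and 174 of the 190 members had a negative difference, for which the share of all genes tested is not given here. Leaving out clr4D-labelled 24 h replicate 1 or replicate 2 took the count of 7 to 1 or 2, leaving out wt 24 h replicate 2 left none, and leaving out wt 4 h replicate 2 gave 36.

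Both clr4D-labelled libraries lay below both wt libraries for 158 members at 4 h (83.2%, beside 27.2% of all genes tested), 164 at 10 h (86.3%, beside 34.8%) and 156 at 24 h (82.1%, beside 33.5%). At 2 h this held for 16 members (8.42%, beside 21%), and both clr4D-labelled libraries lay above both wt libraries for 74 (38.9%, beside 20.6%).

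**Figure D5:**
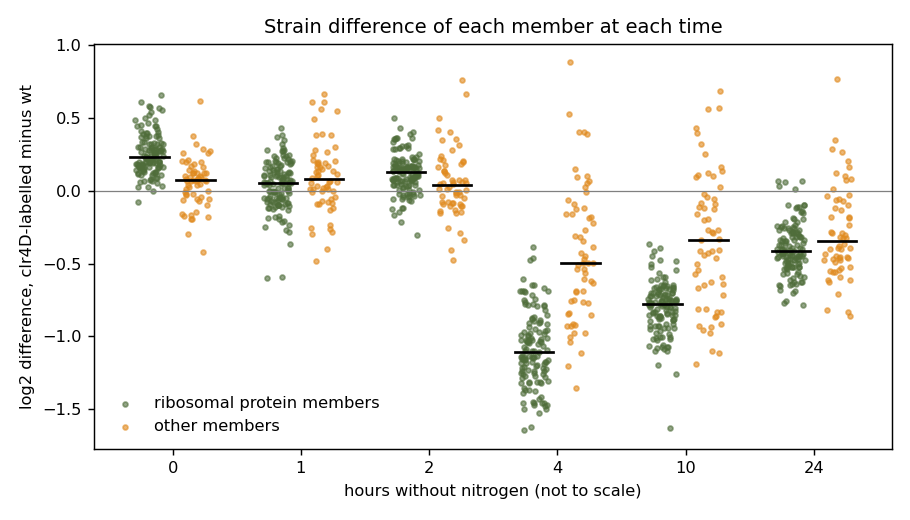
Log2 difference between clr4D-labelled and wt cells for each member at each time, ribosomal protein members left and other members right of each tick, with the median as a bar. The medians lie near 0 at 2 h and below 0 at 4, 10 and 24 h; the 0 h and 1 h values share libraries with the member rule and were not tested.

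Whether the course from 2 h to 24 h differed by strain was tested directly. In clr4D-labelled cells 84 members rose and 7 fell over that interval, where 14.3% and 18.6% of all genes tested were called, beside 159 and 6 in wt. None of the 190 members passed the test of the difference in either direction (edgeR; 20 at an unadjusted p under 0.05, none with DESeq2), where 0.583% of all genes tested did. Fitting only the groups compared called 27 members, all with a smaller rise or larger fall in clr4D-labelled cells. The median of the difference was -0.46, and it was negative for 184 of the 190 members. The share of all genes tested with a negative difference is not given here, nor is the share called in the fit of only the groups compared. The clr4D-labelled count of 84 was 31 without either 2 h library, 34 and 52 without 24 h replicates 1 and 2, and 133 without wt 4 h replicate 2.

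Other messages moved with the strain comparisons. The summed level of 7 M-cell mating markers was 186 to 255 CPM in the wt libraries over all times, and in clr4D-labelled cells 2720 and 2659 at 2 h, 8800 and 8392 at 4 h, 8719 and 10340 at 10 h, and 4192 and 4891 at 24 h. All 7 were called higher at 2, 4, 10 and 24 h, and in wt 4 h replicate 2 the pheromone genes mfm2 and mfm3 had 0 reads. Of all genes tested 1.32%, 5.19%, 12% and 5.63% were called higher at these times. The sum of 4 P-cell markers at 10 h was 810 and 850 CPM in wt and 7114 and 6620 in clr4D-labelled cells. At 2 h the P-cell markers map2, map3 and map4 were called higher by edgeR and map1 was not (0.51 ± 0.28 SE, adjusted p = 0.74). The sum of 10 spore markers ranged from 260 to 470 CPM in wt, and was 505 and 473 in clr4D-labelled cells at 4 h, 16137 and 7764 at 10 h and 15273 and 7892 at 24 h, with 4, 10 and 6 of 10 called higher. Most of the later sums came from isp3, for a spore wall protein, at 11784 and 5429 CPM at 10 h and 14607 and 7229 at 24 h in clr4D-labelled cells. Multiply aligned reads were 7.41% to 10.4% of the clr4D-labelled libraries from 1 h on, and 5.43% to 8.50% of the wt ones other than wt 4 h replicate 2, which had 10.8%. The part of these messages, of depth and of uncounted reads in the members' differences was not tested.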

How the data were processed

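The deposited values are whole read counts per gene, 1 file for each of 24 libraries. Per the submitters' processing notes the authors used TopHat2 2.0.8, HTSeq 0.6.1 and the ASM294v2 genome, and the strand setting is not given in the sources used here. Of 6877 genes 6705 were matched by systematic name to RefSeq annotation of another build, used for names and products only. Counts were filtered (filterByExpr, 5664 genes kept), scaled by TMM (factors 0.695 to 1.26) and fitted with edgeR 4.0.16 in R 4.3.3 as 12 group means. Quasi-likelihood F tests were two-sided and Benjamini-Hochberg adjusted over all genes tested, with calls at an adjusted p under 0.05. The script was tested on simulated data, in which part of the smaller changes were not recovered. The limit for recovering them was lowered after a first limit was missed. Alternatives included DESeq2 1.42.0, other scalings and left-out libraries. A count of 0 allows up to 3 reads, 0.678 to 4.70 CPM, which covers counting error only.

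The members, role groups and gene lists were chosen with earlier results of these data known. Genes named in the text are, per role, the member highest in clr4D-labelled cells at 0 h, the extremes of 24 h against 1 h there and of the strain differences at 10 h and 24 h. Over all members they are the 5 extremes in each direction of 24 h against 2 h in wt, those at the edges of the rule, the 5 widest family gaps and every member that is no ribosomal protein. The gene rps2601 was named after its values were seen. The result for 1 of the 5 families with the widest gaps is not reported here.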

Additional observations from a re-analysis of the deposited data

How the results depend on the processing

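All 190 members stayed called lower in the first hour in clr4D-labelled cells under every alternative run. Of 277 alternatives to 22 summary values 218 stayed within 1.5 times, and 59 did not. Leaving out each library of the groups compared in turn gave 57 to 90 members higher at 24 h against 1 h in clr4D-labelled cells, and 31 to 52 higher at 24 h against 2 h. For the strains it gave 0 to 1 higher at 2 h, 1 to 166 lower and 1 to 2 higher at 4 h, 11 to 38 lower and 1 higher at 10 h, and 0 to 5 lower and 0 to 1 higher at 24 h.

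Leaving wt 4 h replicate 2 out of every fit gave 1 member higher at 24 h against 0 h and 133 at 24 h against 2 h in clr4D-labelled cells. Between strains it gave 2 lower and 2 higher at 4 h, 139 lower and 5 higher at 10 h, and 36 lower and 1 higher at 24 h. Also leaving out wt 0 h replicate 2, chosen after the data were seen because earlier work on these data left out both libraries together, gave 153 higher at 24 h against 1 h, 1 against 0 h and 142 against 2 h in clr4D-labelled cells, and between strains 0 lower and 2 higher at 4 h, 133 lower and 5 higher at 10 h, and 26 lower at 24 h. Fitting only the groups compared gave 157 members higher at 24 h against 2 h in clr4D-labelled cells, 27 lower in the test of the strain difference, 2 higher at 2 h, 0 lower and 0 higher at 4 h, 151 lower and 6 higher at 10 h, and 96 lower and 2 higher at 24 h. These fits estimate the spread from other libraries. The shares of all genes called in them are not given here, so the counts cannot be set against a background.

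With no scaling beyond library totals, the median of all genes moved by up to 0.581 (log2), at 24 h against 0 h in clr4D-labelled cells. There 2 members were higher, and ght5 changed sign to 0.088 (adjusted p = 0.725). Against 2 h, where the shift was 0.311, 166 were higher and 4 lower. Between strains this scaling gave 6 higher at 4 h, 111 lower and 5 higher at 10 h, and 1 higher at 24 h. DESeq2 gave 4 higher at 10 h and 3 lower at 24 h. The cause of these differences was not tested.

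Replicate numbers are not stated to pair the libraries. Deviations of replicate 1 correlated between groups at -0.075 to 0.33 (median 0.078), and over 0.1 in 23 of 66 pairs of groups. Such low values cannot exclude a weak pairing. With the replicate block 190 members were lower at 1 h in clr4D-labelled cells, 114 higher at 24 h against 1 h and 161 higher at 24 h against 2 h in wt, and between strains 123, 76 and 8 were lower at 4, 10 and 24 h. Other bounds of the rule gave 137 to 225 members, and the clr4D-labelled libraries 196, of which 184 were shared.

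With 2 libraries per group the precision is low, and 3 reads were worth up to 4.70 CPM. Uncounted reads limit what can be said of gene copies.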

Other observations

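The lowest level came at different times among members. By group means, in clr4D-labelled cells the lowest level came at 1 h for 130 members, at 2 h for 25, at 4 h for 3, at 10 h for 24 and at 24 h for 8. In wt, where the 1 h values chose the members, it came at 1 h for 138 members, at 2 h for 41, at 10 h for 4 and at 24 h for 7. The strains' times were not tested against each other. The highest level after 0 h came at 4 h for 159 members in wt, a group of libraries that differed by a median of 2.31-fold over the ribosomal protein members, and at 24 h for 24. In clr4D-labelled cells it came at 24 h for 152 members and at 4 h for 22.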
